A study of Ovis aries with 24 samples.

Results

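The supraspinatus (SS), a shoulder muscle that the callipyge trait leaves at its usual size, was compared with the longissimus dorsi (LD), a back muscle that the trait enlarges, in lambs of the callipyge genotype CN at T12, 11 to 12 weeks of age. The comparison rests on 4 of the 24 arrays of the series, 2 for each muscle, which the labels call technical replicates. Members were the probe sets with a signal of 200 or more on both arrays of at least 1 of these muscles, and 5380 of the 24128 probe sets on the bovine Affymetrix GeneChip met this rule. Of these 4347 reached 200 in both muscles, 640 in SS only and 393 in LD only. A single gene symbol was attached to 3908 of them, several symbols to 26 and none to 1446. With the brightest probe set kept for each symbol, 3329 genes remained. At the edge of the rule, CD46 with SS arrays of 258.9 and 200 lay inside, and MIA3 with SS arrays of 224.9 and 199.9 and LD arrays of 219.2 and 168.8 lay outside.

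All animals came from a flock of Dorset, Suffolk and Rambouillet crosses and were genotyped at the callipyge mutation. CN, also written NCpat, is the paternal heterozygote. The comparison was set beside lambs of the other genotypes at T12, which gave SS of the wild type NN and LD of CC, of the maternal heterozygote NC and of NN, with 2 arrays each. The labels describe LD of male lambs, name no animals for SS, and do not say how many lambs stand behind an array or whether SS and LD came from the same ones. Animal and group therefore cannot be told apart, and p-values measure only the spread between group values. Each group entered the fit as 1 value, the mean log2 signal of its 2 arrays, and groups with 1 value were assumed to vary like the LD genotypes CC, NC and NN.

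The callipyge mutation lies in the imprinted DLK1-DIO3 region, where DLK1 is transcribed from the paternal chromosome and the noncoding RNA MEG3 from the maternal one. The trait appears in lambs that inherit the mutation from the father only, and it enlarges muscles of the loin and hindquarter after birth while muscles of the shoulder are spared. Slow muscle fibres contract with their own set of myosin, troponin and calcium pump genes and burn fat and other fuels in mitochondria, whereas fast glycolytic fibres rely on stored glycogen. Enlarged callipyge muscles are known for a shift towards fast glycolytic fibres.

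Array quality was similar for the muscles. On the 4 arrays the 2% trimmed mean was 200.08 to 200.092, and the median signal was 59.7 and 54 in SS against 49.65 and 51.6 in LD. Over the probe sets of the rule, log2 signals correlated with r = 0.978 between the SS arrays and 0.971 between the LD arrays, and with 0.899 to 0.911 between arrays of different muscles. The log2 ratio of the 3′ to the 5′ GAPDH control, a sign of RNA integrity, was −0.03 and 0.09 in SS and −0.03 and 0.08 in LD. It was 0.0244 and 0.0583 on the SS arrays of NN and 0.0663 and 0.0433 on the LD arrays of CC. On the LD arrays of NC and NN, 2 of the 3 LD genotypes used as a comparison, it lay between 0.187 and 0.246. The part of this ratio in the results was not tested. Both muscles showed the genes that define skeletal muscle. The muscle creatine kinase CKM gave 33380.1 and 33803.1 in SS and 37529.1 and 31370.1 in LD, and skeletal actin ACTA1 gave 33225.2 and 39244.1 against 33838.1 and 28743.2. Haemoglobin and other red blood cell genes reached 200 in neither muscle.

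SS of CN lambs carried far more mRNA for slow-fibre contractile proteins, fat uptake and fat oxidation than LD, and less for glycolysis and glycogen use, while most fast-fibre contractile genes lay close together. Of the 5380 probe sets, 354 (6.58%) passed at a limma Benjamini-Hochberg adjusted p under 0.05, with 219 higher and 135 lower in SS. Among the probe sets that reached 200 in both muscles, 129 were called higher and 102 lower. The other calls were 90 of the SS only and 33 of the LD only probe sets, which the rule admitted through the muscle where they were bright, so the excess of higher calls rests mostly on them. Among the 15654 probe sets tested 2.98% passed, and 2546 had an unadjusted p under 0.05. Of the 3329 genes 207 (6.22%) passed, 126 (3.78%) higher and 81 (2.43%) lower in SS, and the smallest passing difference was 0.64 in log2 signal. Both SS arrays lay above both LD arrays for 27.3% of genes and below them for 33.1%, so separation of the arrays by itself was common. The median difference over the genes was −0.03, with 1588 genes positive and 1741 negative. Among the called genes, fold differences of 4 or more were measured for 34 with more signal in SS and 13 with less.

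**Figure D1:**
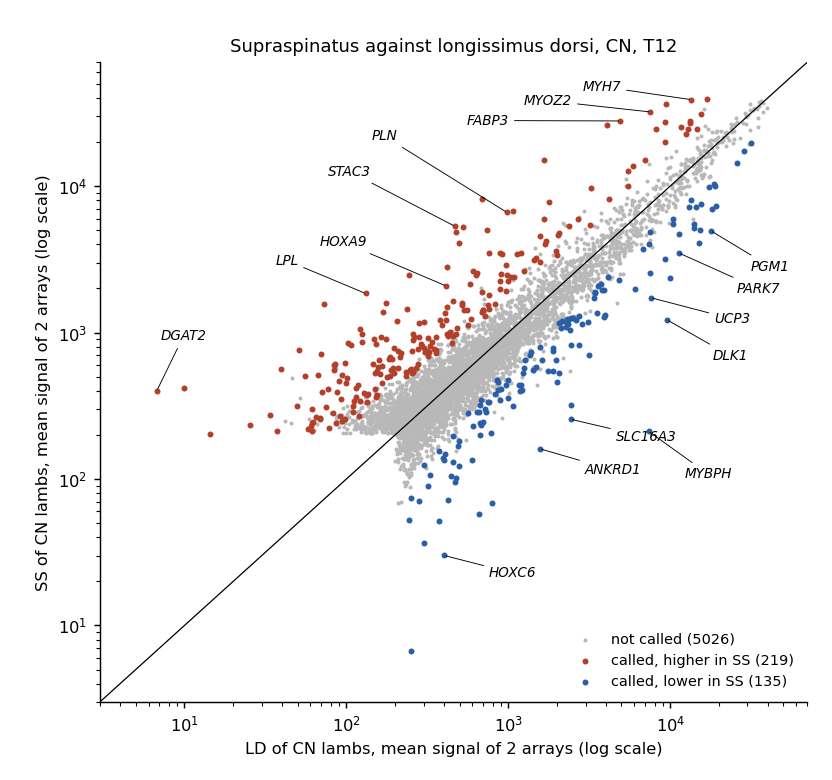
Signal in SS (vertical) against LD (horizontal) of CN lambs at T12, each the mean of 2 arrays on a log scale, for the 5380 probe sets of the rule. Red points are the 219 called higher in SS, blue points the 135 called lower, and grey points were not called; named genes sit well off the line of equal signal, with MYBPH, ANKRD1 and SLC16A3 far below it and LPL, STAC3 and PLN far above it.

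Slow-fibre genes separated the muscles as a group. All 11 members of the slow-fibre list that met the rule rose in SS over LD, with a median difference of 1.54 against −0.03 over all genes. The range was 0.75 to 2.76. The rule admitted 1 of them, MYL6B, through SS only, so its direction was set by the rule. MYH7, the slow myosin heavy chain, gave 35979.9 and 42244 on the SS arrays and 14392.3 and 12532.5 on the LD arrays. The SS arrays were both well above the LD arrays, a 2.9-fold difference (log2 1.54 ± 0.18, SE of the fit, adjusted p = 0.00126). TNNT1, the slow troponin T, gave 26759.4 and 28355.7 in SS against 9770.9 and 8875 in LD, which was 2.96-fold (1.56 ± 0.17, adjusted p = 9.55e-04). PLN, which restrains the slow calcium pump, gave 7263.8 and 6048.9 against 875.4 and 1092.9, the largest difference of the list (2.76 ± 0.38, adjusted p = 0.00335). The pump itself, ATP2A2, rose by 1.12 ± 0.18 (adjusted p = 0.00851).

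The other slow-fibre genes covered the rest of the range. MYOZ2, a Z-disc protein that binds calcineurin, gave 30493.9 and 33834.9 in SS and 7912 and 7190.5 in LD (2.09 ± 0.25, adjusted p = 0.00171). The regulatory light chain MYL2 rose by 1.22 ± 0.17, the slow troponin C gene TNNC1 by 1.01 ± 0.16 and the slow tropomyosin TPM3 by 1.01 ± 0.19. MYBPC1, the slow myosin binding protein, had the smallest rise at 0.75 ± 0.16 (adjusted p = 0.0314). It no longer passed after quantile normalization (0.61, adjusted p = 0.0622) or without the filter on low signal (adjusted p = 0.0803). The essential light chain MYL3 gave 3177.7 and 3788.6 against 652.9 and 876.1 (2.20 ± 0.52, adjusted p = 0.0473), and without LD replicate 1 the call was lost (1.99, adjusted p = 0.0542). For MYL6B, another light chain, the LD arrays differed from each other, with 50.9 and 158 against 459.8 and 473.8 in SS. Its difference of 2.38 ± 0.54 (adjusted p = 0.0397) became 1.56 without LD replicate 1 (adjusted p = 0.132) and 3.20 without LD replicate 2. With the T12 groups alone in the fit, MYL3, MYL6B and MYBPC1 did not pass (adjusted p = 0.0529, 0.0607 and 0.0717). MYH7 was the brightest probe set of SS replicate 2 and MYL2, at 37293.2, that of SS replicate 1, and whether the signal still rises with the amount of RNA at that level was not tested.

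Fast-fibre genes did not mirror this. Of the 11 measured, 1 fell in SS and none rose, with a median difference of −0.24. ACTN3, the alpha-actinin of fast fibres, gave 5781.8 and 5330.3 in SS and 14065.8 and 13802 in LD, with no overlap (−1.33 ± 0.19, adjusted p = 0.00387). MYH1, the IIx myosin heavy chain, gave 34793.5 and 39269.7 in SS and 41568.3 and 33233.1 in LD, and these arrays overlapped (−0.01 ± 0.17, adjusted p = 0.989). Its sign turned without either muscle's replicate 1, to 0.08 without that of SS and 0.15 without that of LD. The fast light chains MYL1 and MYL11 and the fast troponin C gene TNNC2 gave 0.03, 0.01 and −0.01. The fast troponins TNNI2 and TNNT3 gave −0.26 (adjusted p = 0.416) and −0.45 (adjusted p = 0.142) with both SS arrays below both LD arrays. Most of these signals lie near the highest on each array, which was 37293.2 and 42244 in SS and 43044.5 and 36845.2 in LD, so the same limit holds for them. The median of the fast list turned to 0.05 without SS replicate 1.

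**Figure D2:**
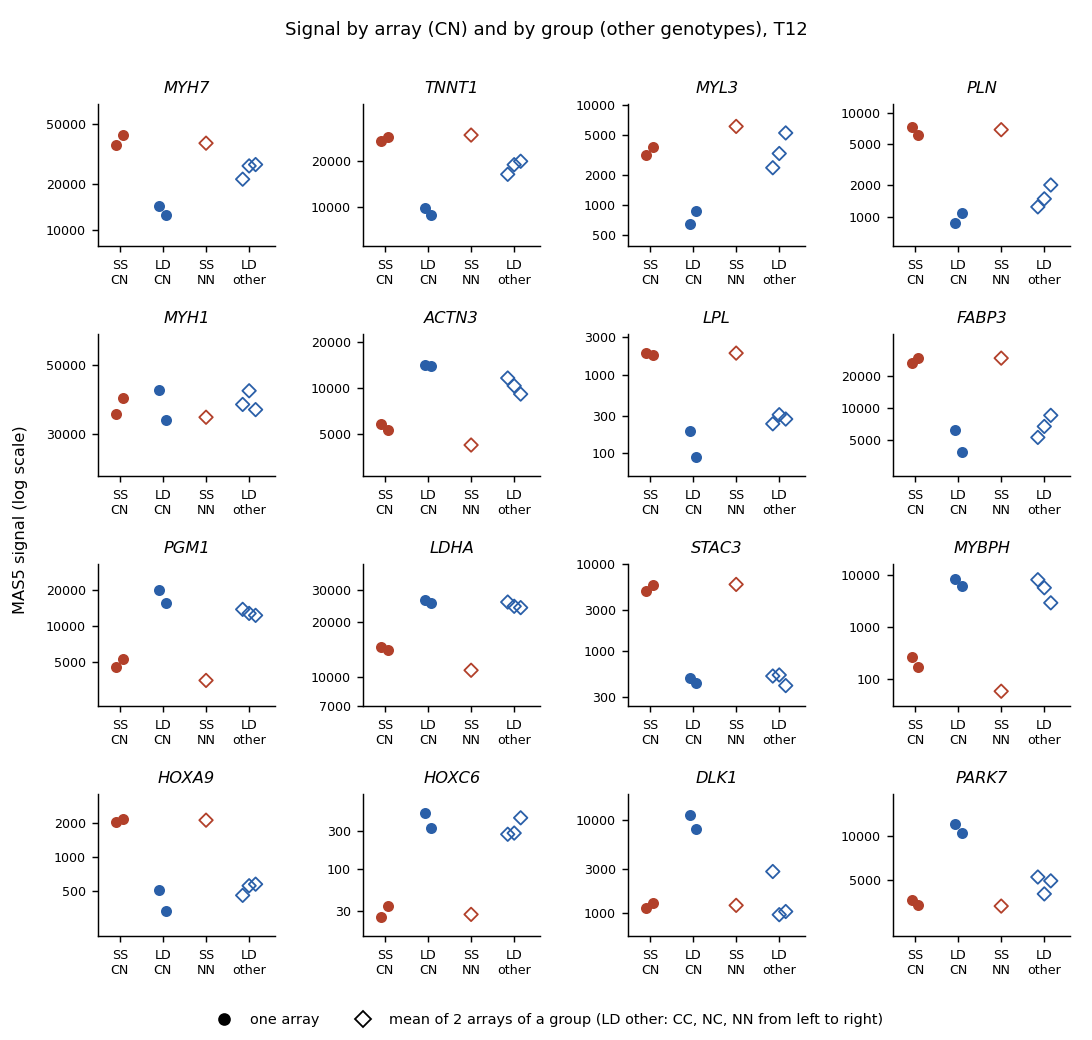
MAS5 signal (log axis, scaled separately for each gene) of 16 genes at T12. Filled circles are single arrays of CN lambs. Open diamonds are means of 2 arrays of NN lambs for SS and of CC, NC and NN lambs, from left to right, for LD. SS and LD circles are apart for every gene shown except MYH1. For ACTN3, PGM1, DLK1 and PARK7 the LD circles of CN also lie above the other 3 LD diamonds.

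Genes for taking up and burning fat were the next group to differ. Of 25 that met the rule, 11 rose in SS and 1 fell, and the median was 0.85. The rule admitted 5 of them, LPL and PLIN5 included, through SS only. LPL, the lipase that releases fatty acids from blood lipoproteins, gave 1895.7 and 1807.9 in SS and 193.2 and 89.2 in LD, a 14.1-fold difference (3.82 ± 0.29, adjusted p = 1.33e-04). FABP3, the fatty acid carrier of the muscle cytoplasm, gave 26338.3 and 29508.3 against 6230.1 and 3876.4 (2.50 ± 0.25, adjusted p = 5.74e-04). Both genes were brighter on each SS array than on either LD array, which the rule favoured for LPL. The fatty acid transporter CD36 rose by 1.53 ± 0.26, PLIN5, a lipid droplet protein, by 1.74 ± 0.28 and CPT1B, the gate for fatty acids into mitochondria, by 1.17 ± 0.21. HADHB and HADHA, the subunits of the trifunctional protein of beta-oxidation, rose by 2.13 ± 0.30 and 1.54 ± 0.23.

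Other genes of fatty acid activation and beta-oxidation also rose. ACADVL, the very long chain acyl-CoA dehydrogenase, rose by 1.21 ± 0.19 and ACSL1, which activates fatty acids, by 0.86 ± 0.16. ETFB, an electron carrier, gave 1400.8 and 1780.7 in SS and 867.1 and 787.4 in LD (0.93 ± 0.21, adjusted p = 0.0421), and without SS replicate 2 it did not pass (0.76, adjusted p = 0.0716). The thiolase ACAA2 (0.77 ± 0.18, adjusted p = 0.0485) did not pass without SS replicate 2 (adjusted p = 0.0708) or LD replicate 2 (adjusted p = 0.0504). With the T12 groups alone neither ETFB (adjusted p = 0.081) nor ACAA2 (adjusted p = 0.0676) passed. The dehydrogenase ACADM gave 0.85 and DECR1, needed for unsaturated fatty acids, 0.97, with neither passing. UCP3, an uncoupling protein of muscle mitochondria that the list also holds, fell, with 1653.6 and 1811.1 in SS and 8276.3 and 6960.7 in LD (−2.13 ± 0.31, adjusted p = 0.00487).

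Glycolysis and glycogen genes ran the other way. Of 25 that met the rule, 11 fell in SS, 1 rose, and the median was −0.71. PGM1, which joins glycogen breakdown to glycolysis, gave 4570.1 and 5361.2 in SS and 20343.5 and 15656.8 in LD, 3.61-fold more in LD (−1.85 ± 0.17, adjusted p = 5.33e-04). PFKM, the muscle phosphofructokinase that sets the pace of glycolysis, gave 7355.2 and 6726 against 18202.4 and 17904.1 (−1.36 ± 0.21, adjusted p = 0.00691). Neither gene overlapped between muscles. The isomerase GPI fell by 1.40, the mutase PGAM2 by 0.71 and ENO3, the muscle enolase, by 0.66. ENO3 did not pass without LD replicate 1 (−0.55, adjusted p = 0.0702) or without the filter on low signal (adjusted p = 0.12), and PGAM2 not without that filter (adjusted p = 0.0989). With the T12 groups alone neither ENO3 (adjusted p = 0.0933) nor PGAM2 (adjusted p = 0.0756) passed. FBP2, the muscle fructose bisphosphatase, fell by 1.60 and pyruvate kinase PKM by 1.79, and the triose phosphate isomerase TPI1 also fell (adjusted p = 0.0155).

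Lactate genes split by isoform. LDHA, the lactate dehydrogenase subunit of fast muscle, gave 14572 and 14108.9 in SS and 26503.4 and 25527 in LD (−0.86 ± 0.15, adjusted p = 0.0132). LDHB, the heart subunit, gave 2701 and 2933.5 against 359.4 and 492.3, a 6.69-fold difference the other way (2.74 ± 0.42, adjusted p = 0.00687). SLC16A3, the transporter that exports lactate from glycolytic fibres, gave 407.2 and 161 in SS and 2711.9 and 2165.6 in LD (−3.24 ± 0.40, adjusted p = 0.00177). It met the rule in LD only. The SS arrays of SLC16A3 differed from each other, and its difference was −3.91 without SS replicate 1 and −2.57 without SS replicate 2. SLC16A1, the transporter that takes lactate up, gave 0.96 and did not pass (adjusted p = 0.09). PFKFB3, a regulator of glycolysis, gave 1167.9 and 586.5 in SS and 1476.9 and 4020.1 in LD (−1.56 ± 0.32, adjusted p = 0.0262). Its call was lost without SS replicate 2 (adjusted p = 0.0869) and without LD replicate 2 (−0.84, adjusted p = 0.165).

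**Figure D3:**
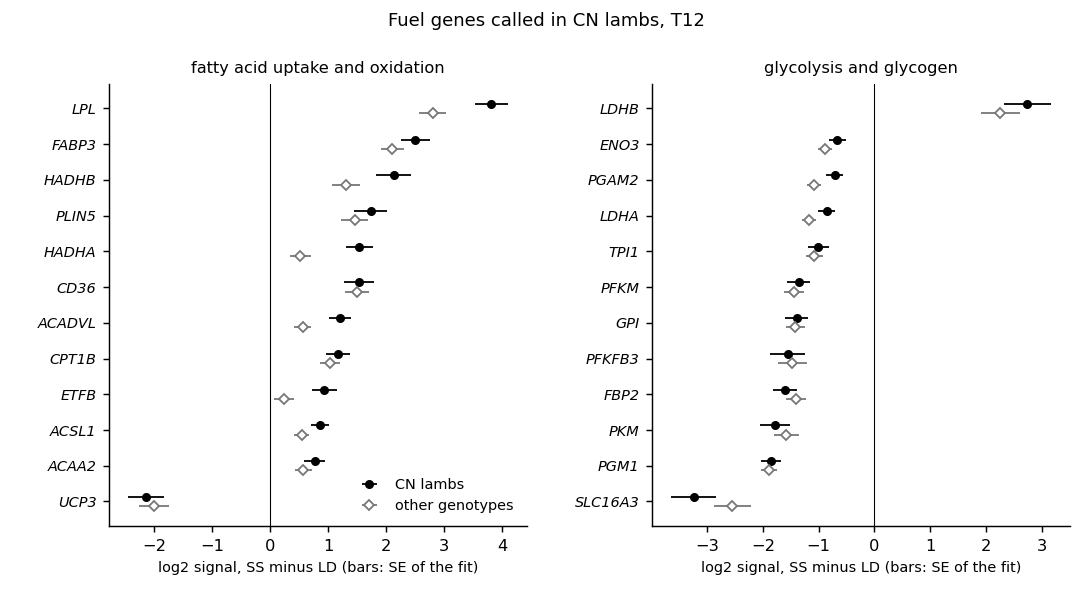
Difference between SS and LD in log2 signal for the 12 called fat genes (left) and the 12 called glycolysis and glycogen genes (right), with SE of the fit as bars; filled circles are CN lambs and open diamonds the other genotypes. Of these 24 genes, UCP3 and the glycolysis genes other than LDHB lie left of 0 and the others right of it, in CN lambs and in the other genotypes.

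Mitochondrial energy genes did not follow the fat genes. Of 75 genes of oxidative phosphorylation, 1 fell and none rose, with a median of −0.21 and 64 members below 0. The one that passed was NDUFA3, a subunit of complex I, with 1845.2 and 1889.1 in SS and 3770.4 and 3117.4 in LD (−0.88 ± 0.19, adjusted p = 0.031). In the citric acid cycle and pyruvate list 2 of 23 rose, 2 fell and the median was −0.23. PDK3, a kinase that shuts off pyruvate dehydrogenase, rose by 1.42 ± 0.28, and PDHX, a structural part of that dehydrogenase, fell by 0.96 ± 0.21. PDK3 met the rule in SS only. Succinyl-CoA ligase split by nucleotide. SUCLG2, its GTP-linked subunit, gave 2841.3 and 2454.9 in SS and 932.4 and 1693.2 in LD (1.07 ± 0.24, adjusted p = 0.039). SUCLA2, the ATP-linked subunit, gave 4778.2 and 4919.1 against 7574.4 and 7496.6 (−0.64 ± 0.15, adjusted p = 0.0462). SUCLG2 did not pass without LD replicate 1 (0.64, adjusted p = 0.168), and SUCLA2 not after quantile normalization (−0.55, adjusted p = 0.0664). With the T12 groups alone NDUFA3, PDHX and SUCLA2 did not pass (adjusted p = 0.0664, 0.0564 and 0.0913). The isocitrate dehydrogenases IDH2 and IDH3A gave 1.28 and −1.19, short of the threshold (adjusted p = 0.051 and 0.055), and IDH3A passed with the T12 groups alone (adjusted p = 0.0372).

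Few markers of fat cells met the rule. Of the 4 that did, DGAT2 and ADIPOQ rose and FABP4 (1.32) and LIPE (0.97) did not pass. DGAT2, ADIPOQ and FABP4 met it in SS only, so their direction was set by the rule. DGAT2, the last enzyme of triglyceride synthesis, gave 355.6 and 452.5 in SS against 6.8 and 6.7 in LD. The LD signals lie under 47.4, the lowest array median of the series, and may not be above background, so the size of the difference (5.89 ± 0.95, adjusted p = 0.00839) is uncertain. ADIPOQ, the hormone adiponectin, gave 239.6 and 231.3 in SS and 64.6 and 10.1 in LD (3.20 ± 0.46, adjusted p = 0.00415). It was 4.54 without LD replicate 1 and 1.87 without LD replicate 2, past the threshold both times. The summed signal of the 16 fat cell markers tested was 2691.3 and 2552.8 in SS and 1126 and 1333.7 in LD, and PPARG, the master regulator of fat cells, was under 200 on all 4 arrays. The markers did not all run one way. The adipsin gene CFD and the lipase PNPLA2, both outside the rule, gave −1.04 and −1.07 without passing, and CFD fell in the other genotypes (−1.61, adjusted p = 0.00807). The part of fat cells in the results for LPL and the other fat genes was not tested, and in whole muscle fewer cells of a type and less RNA per cell cannot be told apart. Of the other marker lists, 0 of 10 endothelial and vessel, 0 of 6 immune and 0 of 4 nerve, Schwann and satellite cell genes passed, with medians of −0.27, −0.02 and 0.17.

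Of 27 matrix and fibroblast genes 6 rose in SS and none fell, and the median was 0.50. The rule admitted 7 of them through SS only and none through LD only. Among the 6 that rose, TNMD, FMOD, COL12A1 and FN1 came in through SS only, and CCN2 and COL1A2 reached 200 in both muscles. TNMD, a membrane protein of tendon cells, gave 945.5 and 1004.8 in SS and 111.9 and 138.3 in LD (2.97 ± 0.67, adjusted p = 0.0408). FMOD, a proteoglycan that shapes collagen fibrils, gave 940.1 and 869.1 against 152.7 and 200.9 (2.37 ± 0.37, adjusted p = 0.00691). COL12A1, a collagen on the surface of fibrils, gave 566.6 and 615.1 against 189.3 and 144.4 (1.84 ± 0.32, adjusted p = 0.013). All 3 had both SS arrays above both LD arrays, which the rule favoured and which held for 27.3% of all genes. Fibronectin FN1 rose by 1.45, the growth factor CCN2 by 1.26 and the type I collagen chain COL1A2 by 1.12, and its partner COL1A1 gave 1.18 (adjusted p = 0.081). COL11A1, a minor fibrillar collagen outside this list that also reached 200 in SS only, gave 441.3 and 572.4 against 71.2 and 43.1 (3.18 ± 0.69, adjusted p = 0.0334), but its next brightest probe set gave 1.02 (adjusted p = 0.266). TNMD, COL1A2 and COL11A1 did not pass with the T12 groups alone in the fit (adjusted p = 0.096, 0.0674 and 0.0922). The collagens COL3A1 and COL4A1 gave 0.33 and −0.30, neither passing.

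Homeobox genes mark position along the body and the limb. Of 6 that met the rule, HOXA9 rose, HOXC6 fell and 4 did not pass. HOXA9 gave 2004.8 and 2156.3 in SS and 510.2 and 335.4 in LD (2.33 ± 0.22, adjusted p = 5.33e-04). HOXC6, which met the rule in LD only, gave 25.9 and 34.9 in SS, under the lowest array median, and 492.9 and 325.6 in LD (−3.74 ± 0.35, adjusted p = 5.33e-04). For neither gene did the muscles overlap, which the rule favoured for HOXC6. HOXB3 (1.78), PITX1 (1.55), HOXA10 (0.89) and HOXA5 (0.29) did not pass, though HOXB3 did with the T12 groups alone (adjusted p = 0.0496).

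A few genes of calcium handling and its signalling differed strongly, though most of their list did not pass. STAC3, an adaptor that couples the voltage sensor to calcium release, gave 4960.7 and 5719.3 in SS and 501.6 and 434.4 in LD, 11.4-fold (3.51 ± 0.25, adjusted p = 8.45e-05). Of its other 3 probe sets 2 were also called higher in SS, and the dimmest gave −0.22. RCAN1 and RCAN2, inhibitors and targets of the calcium-activated phosphatase calcineurin, both rose. RCAN1 gave 2762.6 and 2490.5 in SS and 597.5 and 618.9 in LD (2.11 ± 0.24, adjusted p = 0.00126), and RCAN2 gave 550.8 and 474.4 against 59.3 and 74.5 (2.94 ± 0.43, adjusted p = 0.00493). These were the 3 of 26 genes of the calcium, cAMP, HDAC and MEF2 list that passed, against 6.22% of all genes. The median of that list was −0.12, with 16 members below 0. RCAN2 met the rule in SS only, which favoured its direction. The transcription factor MEF2C gave 1.57, short of the threshold (adjusted p = 0.055) but past it with the T12 groups alone (adjusted p = 0.0222), and the calcineurin subunits PPP3CA and PPP3CB −0.17 and 0.08.

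Of 34 stress and immediate early genes 1 rose and 3 fell, with a median of 0.08, and the share that passed over all genes was 6.22%. IER3 rose by 1.46, and ANKRD1, CEBPB and ATF4 fell. ANKRD1, a titin-binding protein induced by load, gave 130.3 and 199 in SS and 1402.4 and 1740.5 in LD, 9.7-fold more in LD (−3.28 ± 0.27, adjusted p = 1.71e-04). It met the rule in LD only. ATF4, a transcription factor of the amino acid response, gave 7411.8 and 7694.8 against 16889.1 and 14295 (−1.04 ± 0.21, adjusted p = 0.0238). The fall of CEBPB (−1.36, adjusted p = 0.0287) did not pass without SS replicate 1 (adjusted p = 0.097) or LD replicate 1 (adjusted p = 0.0542). With the T12 groups alone neither IER3 (adjusted p = 0.0674) nor CEBPB (adjusted p = 0.0526) passed. Of 15 growth signalling genes FGF2 alone passed, with 738.2 and 768.6 in SS and 201 and 217.7 in LD (1.85 ± 0.28, adjusted p = 0.00571). Myostatin MSTN, which limits muscle growth, gave 259.8 and 317.7 in SS and 1055.1 and 639.5 in LD. The arrays did not overlap, but the difference did not pass (−1.52 ± 0.60, adjusted p = 0.236).

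Among 24 genes of protein breakdown and autophagy GABARAPL1 rose by 1.19, and 0 of 30 proteasome genes passed, with medians of −0.34 and −0.16. Ribosomal protein genes gave 0 of 60 and a median of 0.10. Of the 4 proliferation genes TPX2, a spindle protein that met the rule in LD only, fell, with 105.3 and 97.7 in SS and 660.1 and 338.1 in LD (−2.22 ± 0.41, adjusted p = 0.0158). It did not pass with the T12 groups alone (adjusted p = 0.0529).

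**Figure D4:**
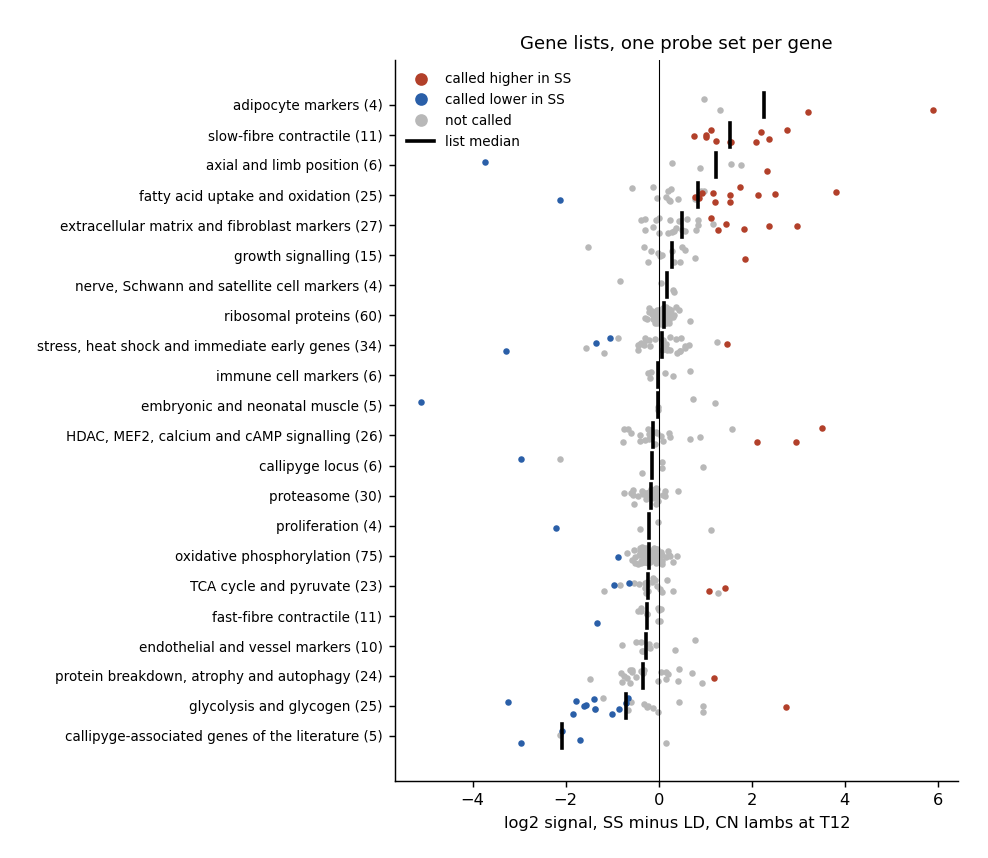
Difference between SS and LD of CN lambs in log2 signal for every listed gene that met the rule, with 1 probe set per gene, the number of genes after each list's name and the list median as a black bar. All 11 slow-fibre genes are red (called higher in SS), 11 glycolysis and glycogen genes are blue (called lower), and proteasome and ribosomal genes are grey and close to 0.

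Of the 14 callipyge locus genes listed, 8 were tested and 6 met the rule. Of these 6 only 1 passed, and the share over all genes was 6.22%. DLK1, a membrane protein of the Notch ligand family, gave 1149.2 and 1295.3 in SS and 11364.3 and 8064.3 in LD, 7.85-fold more in the enlarged muscle (−2.97 ± 0.56, adjusted p = 0.0173). The SS values of CN lay near the 1217 of SS in NN. A second, dim DLK1 probe set gave −0.14 (arrays 131.6 and 192.4 in SS, 164.3 and 186.1 in LD), and with the T12 groups alone DLK1 did not pass (adjusted p = 0.0628). MEG3 gave 550.8 and 545 in SS and 2680.7 and 2143.1 in LD, without overlap, but with LD of the other genotypes ranging from 358.2 in NN to 12870 in CC and 13030 in NC its SE was 2.18 (−2.13, adjusted p = 0.713). Of its other 4 probe sets, the next brightest gave −0.73, one gave −0.06, and the others 1.47 and 1.19, so the direction differed between probe sets. The phosphatase subunit PPP2R5C gave 0.96, the tRNA synthetase WARS1 −0.37, and the transcription factor YY1 and the dynein heavy chain DYNC1H1 0.08 each, none passing. The signs of YY1 and DYNC1H1 turned in fits without 1 array. EVL and SLC25A29, tested but outside the rule, gave −0.30 and −0.74 without passing.

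Of 5 genes that the literature links to the callipyge trait, 3 fell in SS. That list includes DLK1 and MEG3, and its members are known from LD of callipyge sheep, so their direction is not independent evidence. PARK7, a protein that guards against oxidation, gave 3637 and 3362 in SS and 12101.7 and 10544.3 in LD, 3.23-fold more in LD (−1.69 ± 0.20, adjusted p = 0.00134). DNTTIP1, a subunit of a histone deacetylase complex, gave 2163.1 and 2574 against 11097.7 and 8896.2 (−2.07 ± 0.30, adjusted p = 0.00463). Its difference in the other genotypes was −2.29 and passed, with 898.1 in SS of NN and 3369 to 5865 in LD. METTL21E, a methyltransferase of muscle, did not separate the muscles, with 1000 and 1235.7 in SS and 899.9 and 1094.5 in LD (0.16 ± 0.41, adjusted p = 0.905). In the other genotypes it was at 687.3 in SS of NN and 148.6 to 261.2 in LD, a difference of 1.81 that passed.

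Of 14 listed embryonic and neonatal muscle genes, 11 were tested and 5 met the rule, of which 1 passed. The tested members outside the rule did not pass, the myosin heavy chains MYH3 (−0.32) and MYH8 (0.67) included. MYBPH, a myosin binding protein, gave 266.3 and 168.4 in SS and 8581.4 and 6292 in LD, 34.7-fold more in LD (−5.12 ± 0.53, adjusted p = 7.44e-04), and its second probe set gave −3.50. MYBPH met the rule in LD only, which favoured this direction. The remaining members of that list that met the rule, ACTC1 (1.20), DES (0.73), MYOG (−0.02) and IGF2 (−0.02), did not pass. IGF2 changed sign after quantile normalization (0.04). Further large differences were measured for genes that belong to none of the lists. PLCL2, related to phospholipase C, gave 283.6 and 357.3 against 2537.8 and 2369.7 (−2.95 ± 0.29, adjusted p = 5.41e-04), but another probe set of it gave 0.07. MAPK12, the p38 kinase of skeletal muscle, gave 472.5 and 451 against 1987 and 1985.3 (−2.11 ± 0.26, adjusted p = 0.00197). CA14, a membrane carbonic anhydrase, gave 484.8 and 1008.6 against 3176 and 3099.6 (−2.17 ± 0.21, adjusted p = 5.41e-04). In each of these the LD arrays were all above the SS arrays. PGP, which clears by-products of glycolysis, fell by 1.97 and the GTPase regulator ARHGAP18 by 2.30. ARHGAP18 met the rule in LD only, as did CST6. The protease inhibitor CST6 fell by 2.00 (adjusted p = 0.0473), with calls lost without SS replicate 1 and LD replicate 1 (adjusted p = 0.0722 and 0.0507) and with the T12 groups alone (adjusted p = 0.0628), and 0.89 on its other probe set.

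Higher in SS, LOC513055, which carries no gene name here, gave 1616.2 and 1523.3 against 76.5 and 69.7, 21.5-fold (4.43 ± 0.36, adjusted p = 1.71e-04). MRPS6, a protein of the mitochondrial ribosome, gave 3833.7 and 4403.8 against 578.7 and 424.5 (3.05 ± 0.26, adjusted p = 2.41e-04). TMEM120A, a membrane protein linked to fat cell formation, gave 1256.6 and 1537.8 against 194.4 and 143.7 (3.06 ± 0.30, adjusted p = 5.41e-04). The muscles did not overlap for these genes. The secreted protein LGI1 rose by 3.34 ± 0.32 and EPHX2, the soluble epoxide hydrolase, by 2.84 ± 0.33. KMT2E, a chromatin protein, gave 290.7 and 253.8 in SS and 86.3 and 13.3 in LD (3.00 ± 0.66, adjusted p = 0.0354). It was 4.35 without LD replicate 1 and 1.65 (adjusted p = 0.18) without LD replicate 2, and 0.22 on its next brightest probe set. LOC513055, TMEM120A, LGI1, EPHX2 and KMT2E met the rule in SS only, so the rule favoured their direction. Of the 354 called probe sets 93 had no gene symbol, so part of the difference between the muscles carries no name here.

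The same muscles were also compared without the trait. In the other genotypes, SS of NN against LD of CC, NC and NN gave 113 genes higher (3.39%) and 99 lower (2.97%) among the same 3329. Called in both comparisons were 125 genes, all in the same direction, which is 60.4% of those called in CN and 59% of those called in the other genotypes. No array is shared between the differences, but both were tested in the same fit. The error of both came from the spread among LD of CC, NC and NN, so the calls are not independent. Across the 3329 genes the differences correlated with r = 0.808 and rho = 0.751, as a description, since genes are not independent replicates. Of the 207 genes called in CN, 206 had the same sign in the other genotypes and 171 were larger in CN, where the call itself selects for size.

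The test of the difference between genotypes called none of 15654 probe sets (0%), with a smallest limma adjusted p of 0.342, and 777 had an unadjusted p under 0.05, of which 202 belong to the rule. Fits with each array as a sample called 37 to 42, but their error holds only the spread between technical arrays. The slow-fibre list had a median of 1.54 in CN and 0.61 in the other genotypes, and the matrix list 0.50 and 0.01. The difference was more positive in CN for 11 of 11 slow-fibre genes and 24 of 27 matrix genes, against 51.4% of all genes. It was also more positive for 57 of 60 ribosomal and 61 of 75 oxidative phosphorylation genes, all on the same arrays. Glycolysis and glycogen had −0.71 and −0.89, and fat uptake and oxidation 0.85 and 0.36. The rule used the CN arrays alone, which favours a more positive difference in CN for genes admitted through SS only. These were 7 matrix genes, 5 fat genes and 1 slow-fibre gene, so the counts and medians of these lists are partly shaped by the rule.

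The 10 genes of smallest p in that test are described by their levels, since none passed. PARK7 was at 3497 in SS and 11300 in LD of CN and at 3328 in SS and 4030 to 5255 in LD of the others (difference between genotypes −1.19 ± 0.25, adjusted p = 0.404). DLK1 gave −2.75 ± 0.72 (adjusted p = 0.597), and LD of CN stood above the 2818 of CC, 965.2 of NC and 1044 of NN. For both genes it was the LD of CN that stood apart, while the SS values of CN and NN lay close together. MYH7 was at 37230 in SS of NN and at 21590 to 26940 in LD of the others, above the 13430 in LD of CN (0.95 ± 0.23, adjusted p = 0.515). TNNT1 showed the same order, with 29350 in SS of NN and 16300 to 19820 in LD of the others against 9770.9 and 8875 on the LD arrays of CN (0.88 ± 0.22, adjusted p = 0.563). RCAN1 lay at 2165 in SS of NN and 1183 to 1646 in LD of the others (1.40 ± 0.31, adjusted p = 0.404). FMOD lay at 486.7 and at 284.8 to 511.1 (1.95 ± 0.48, adjusted p = 0.536), with SS of CN the highest group and LD of CN the lowest.

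The other 4 were less regular. PTMS, the acidic nuclear protein parathymosin, gave 630.9 and 376.6 in SS and 65.4 and 32.5 in LD of CN, but 67.35 in SS of NN and 426.5, 311 and 80.63 in LD of CC, NC and NN (5.11 ± 1.13, adjusted p = 0.404). High and low values of PTMS therefore occurred in both muscles. CCT5, a chaperonin subunit, and LACTB, a protein of the mitochondrial intermembrane space, gave −1.06 and −1.27. CSN2, the milk protein beta-casein, rested on 1 array, with 748.1 and 6252.1 in SS and 545.3 and 611.1 in LD. Its difference between muscles in CN of 1.91 (adjusted p = 0.00687) was 0.37 without SS replicate 2 (adjusted p = 0.537), and its other probe set had the opposite sign in the test between genotypes.

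**Figure D5:**
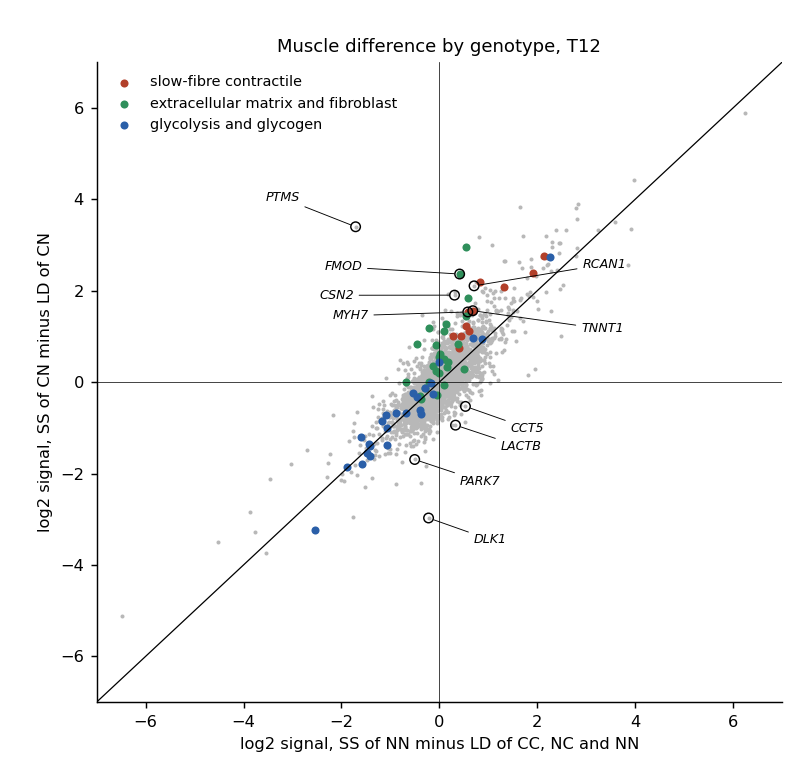
Difference between SS and LD in log2 signal in CN lambs (vertical) against the other genotypes (horizontal), with the line of equal differences. Grey points are the 3908 probe sets of the rule with a single gene symbol, so a gene can have several. Circled are the 10 genes of smallest p in the test of the difference between genotypes, none of which passed; slow-fibre (red) and most matrix genes (green) lie above the line, and DLK1 and PARK7 lie below it.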

How the data were processed

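The authors deposited 1 intensity per probe set and array on a linear scale, computed with MAS5 according to the submitters' processing notes. The version is not given in these sources. A 2% trimmed mean of 200.08 to 200.093 on each array shows the scaling. Biotin-labelled cRNA came from 5 µg of total RNA, per the labels. Signals at or below 1 were set to 1, log2 was taken and the 2 technical arrays of a group were averaged. A two-sided limma model (limma 3.58.1, R 4.3.3, lmFit and eBayes with trend) was fitted to 12 group values in 8 cells, with CC, NC and NN of LD pooled at each age (residual degrees of freedom 4, prior 6.89). LD at T0 and the other NN muscles entered only this fit. The 15654 probe sets above the median log2 signal in at least 1 group, without 112 controls, were tested, and p was adjusted over all of them by Benjamini-Hochberg. Log2 differences carry the SE of the fit. No SD between arrays is used as an error, since the arrays are technical, and precision is limited by their number. The probes are bovine and the RNA is ovine, which can weaken binding.

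Gene names came from the platform annotation, which can be old, and 3180 of the 3329 symbols were found in a RefSeq gene table for sheep (ARS-UI_Ramb_v3.0). Coordinates and sequences were not used here. Named were the 15 largest positive and negative called differences, the 10 genes of smallest p in the test between genotypes, callipyge locus genes and list members. A few members of each list that did not pass were chosen after their values were seen. The members and lists were chosen with earlier results of these data known. Alternatives were the filter, quantile normalization, log2 of signal plus 32, T12 groups only, arrays as samples with and without the replicate number, LD of NN alone, the second brightest probe set, and leaving out each array.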

Additional observations from a re-analysis of the deposited data

How the results depend on the processing

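With 2 technical arrays per muscle, the call counts depended on what was taken as the spread. Taking each array as a sample gave 1141 called probe sets (582 higher and 559 lower in SS) and 37 in the test between genotypes, in place of 354 (219 and 135) and 0. With the replicate number as a block these were 1221 (618 and 603) and 42. Whether the replicate numbers pair the muscles is not settled by the values. The deviations of SS and LD of CN correlated at −0.348, the lowest of 66 pairs of groups. The highest pair was at 0.47, and 31 pairs were over 0.1. Crossing the numbers, added after seeing the data, gave 1244 (629 and 615) and 41. Testing the probe sets of the rule alone gave 204 lower in SS. Leaving out 1 of the 4 arrays gave 460 to 547 calls, with 265 to 307 higher and 185 to 240 lower, the most without LD CN T12 replicate 2, and leaving out 1 array gave 0 to 4 in the test between genotypes. A group left with 1 array carries more technical noise than the SE of these fits holds, so their counts can be too high. Of 79 called genes followed, 68 kept their call without each of the 4 arrays. All 79 kept their direction after quantile normalization and with log2 of signal plus 32, and 2 and 1 of them fell short of the threshold. The fits with the T12 groups alone and without the filter leave each difference unchanged, so only the calls could move there. In these fits 18 and 5 of the 79 fell short.

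Reversals concerned small, uncalled differences or other probe sets. Over the fits without 1 of the 4 arrays, YY1 ranged from −0.0757 to 0.2271, MYH1 from −0.1694 to 0.1535, IGF2 from −0.185 to 0.1495, DYNC1H1 from −0.1475 to 0.3095 and the fast-fibre median from −0.374 to 0.0513. Turned signs came without replicate 1 of SS or LD of CN for YY1, MYH1 and IGF2, without replicate 2 of either for DYNC1H1 and without SS CN T12 replicate 1 for the median. After quantile normalization IGF2 gave 0.0429. On the second brightest probe set PLCL2 gave 0.071 and CST6 0.8916. The causes were not tested. Signals under 47.4 may not be above background.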
